A study of Mus musculus with 6 samples.

Results

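The genes described here encode the signalling part of the T cell receptor and the molecules that stand beside it: Cd3d, Cd3g and Cd247 of the CD3 complex, the coreceptors Cd4, Cd8a and Cd8b1, the kinases Lck and Zap70, the adaptor Lat, and the surface glycoprotein Thy1. They were chosen by name, with earlier results of these data known, and every annotated probe set of each was taken. Of the 10 genes, 9 had annotated probe sets, 19 in all, among 18193 genes with 1 annotated symbol on the array. Lck had none in the annotation used and is not analysed here.

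The antigen-binding chains of the T cell receptor have no signalling tail of their own, and the CD3 chains and the zeta chain from Cd247 carry the tyrosine motifs that are phosphorylated when antigen is bound. Lck, held by the tail of CD4 or CD8, phosphorylates those motifs, Zap70 docks on them, and Zap70 in turn phosphorylates Lat, the membrane scaffold on which downstream signalling assembles. CD4 and CD8 mark the helper and cytotoxic lineages, and regulatory T cells of the kind studied here belong to the CD4 lineage.

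Affymetrix Mouse430_2 arrays were used to profile 3 populations of T cells sorted from the same hosts, BALB/c mice lacking Rag1, which make no T or B cells. All hosts had received wild-type natural regulatory T cells (nTreg) together with 500000 wild-type regulatory T cells induced in culture (iTreg), and cells of 14 mice were pooled from spleen and mesenteric lymph nodes after 125 days. ex-iTreg cells carried the Thy1.1 mark of the induced cells but no EGFP from the Foxp3 reporter, iTreg cells carried both, and nTreg cells had EGFP without Thy1.1. Each population has 2 arrays, 1 per replicate pool; whether the pools held separate mice is not stated, so p-values measure only the spread between pools, which may be technical.

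Values are the deposited log2 RMA expression values. Testing was limited to probe sets that exceeded a filter level of 5.48 (the median over the whole table) on 2 arrays or more; 23484 probe sets passed, among them 15 of the 19 described here. The 4 that did not were 3 of the 5 probe sets of Cd8a and 1 of the 4 of Cd247. Differences were tested with limma over all arrays, are given in log2 units ± standard error with n = 2 arrays per group, and were called at an adjusted p under 0.05. Each population enters 2 of the 3 comparisons, so those share arrays. Cd2, Cd5, Cd3e and Cd28, T cell surface genes used to check the label, read between 10.41 and 12.83 in all arrays. In bulk samples, fewer cells of a type and less RNA per cell cannot be told apart.

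Promoter sequences are shown for 4 of the genes as windows of 300 bases that span the start, from RefSeq (GRCm38.p6). Cd3d and Cd3g lie next to each other on chromosome 9 on opposite strands, Cd8a lies next to Cd8b1 on chromosome 6, and Lat was called higher than in nTreg in both populations of induced origin. Capitals mark 3 motifs searched on both strands: AGGAAG, a core bound by ETS factors, TGTGGT, a core bound by RUNX factors, and the E-box CANNTG. Among 32851 RefSeq promoters of this length, 35.4% held the first, 16.8% the second and 72.3% the third.
Cd3d promoter, chr9:44981536-44981835, plus strand: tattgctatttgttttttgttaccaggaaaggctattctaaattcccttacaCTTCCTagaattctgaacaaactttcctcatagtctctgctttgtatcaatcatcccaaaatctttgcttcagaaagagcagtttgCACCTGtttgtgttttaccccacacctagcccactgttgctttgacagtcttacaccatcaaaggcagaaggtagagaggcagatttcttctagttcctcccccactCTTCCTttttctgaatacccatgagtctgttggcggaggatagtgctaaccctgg
Cd3g promoter, chr9:44980382-44980681, minus strand: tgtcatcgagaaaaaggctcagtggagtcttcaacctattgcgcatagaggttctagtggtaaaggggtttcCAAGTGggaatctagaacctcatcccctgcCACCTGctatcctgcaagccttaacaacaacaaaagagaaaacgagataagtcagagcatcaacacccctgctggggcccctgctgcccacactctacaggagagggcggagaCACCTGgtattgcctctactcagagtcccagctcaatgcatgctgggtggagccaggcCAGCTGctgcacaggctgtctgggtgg
Cd8a promoter, chr6:71373177-71373476, plus strand: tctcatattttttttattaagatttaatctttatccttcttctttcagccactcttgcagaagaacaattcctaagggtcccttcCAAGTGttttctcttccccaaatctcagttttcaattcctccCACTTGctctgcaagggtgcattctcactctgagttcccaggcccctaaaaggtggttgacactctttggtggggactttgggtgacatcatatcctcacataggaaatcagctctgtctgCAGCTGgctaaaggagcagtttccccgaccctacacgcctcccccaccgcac
Lat promoter, chr7:126369519-126369818, minus strand: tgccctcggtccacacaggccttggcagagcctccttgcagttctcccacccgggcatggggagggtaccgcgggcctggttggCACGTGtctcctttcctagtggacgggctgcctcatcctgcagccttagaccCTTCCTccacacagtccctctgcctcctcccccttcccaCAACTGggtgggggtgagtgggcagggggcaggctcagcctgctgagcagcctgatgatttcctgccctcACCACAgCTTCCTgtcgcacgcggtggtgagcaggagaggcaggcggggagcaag
The Cd3d window held 2 matches to AGGAAG and 1 E-box, the Cd3g window 4 E-boxes, and the Cd8a window 3 E-boxes. The Lat window held all 3 motifs, with 2 matches to AGGAAG, 1 to TGTGGT and 2 E-boxes. These are descriptions of letters in the window, not of binding. Of the 10 genes 7 matched the promoter table, and Cd4, Cd8b1 and Thy1 did not.

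Cd8b1 differed most between the populations, with a log2 difference of -1.84 in ex-iTreg minus nTreg and of -1.09 in iTreg minus nTreg. Its ex-iTreg arrays lay under the filter level, so the size of the first is not resolved. The next largest difference on a gene's brightest probe set was 0.73, for Thy1. In iTreg minus nTreg, 4 of the 15 tested probe sets rose and 2 fell, 40% called against 29.1% of all probe sets tested. In ex-iTreg minus iTreg, 5 rose and 2 fell, 46.7% against 37%. In ex-iTreg minus nTreg, 7 rose and 2 fell, 60% against 36.4%. Since the genes were chosen with earlier results of these data known, these shares are descriptions and not a test. A gene with several probe sets counts more than once in them. The median difference over the 15 probe sets was 0.03, 0.11 and 0.21 in these comparisons, against 0.02, 0.00 and 0.03 over all probe sets. With only the brightest probe set of each of the 9 genes, 3 rose and 2 fell in iTreg minus nTreg. In ex-iTreg minus iTreg 2 rose and 2 fell, and in ex-iTreg minus nTreg 4 rose and 2 fell. Over all genes tested, 29.1%, 36.6% and 37.4% were called. The medians of the 9 genes were 0.04, -0.11 and 0.11, against 0.04, -0.02 and 0.03 over all genes, so the direction in ex-iTreg minus iTreg depended on the counting. The counts of probe sets rested on single arrays: without 1 array they ranged from 3 to 5, from 3 to 6 and from 3 to 8. Of the 22 calls, 9 were kept whichever array was left out; these were Cd8b1 in all 3 comparisons, Lat in both comparisons with nTreg, Thy1 in iTreg minus nTreg, and 1 probe set each of Zap70, Cd247 and Cd4.

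**Figure D1:**
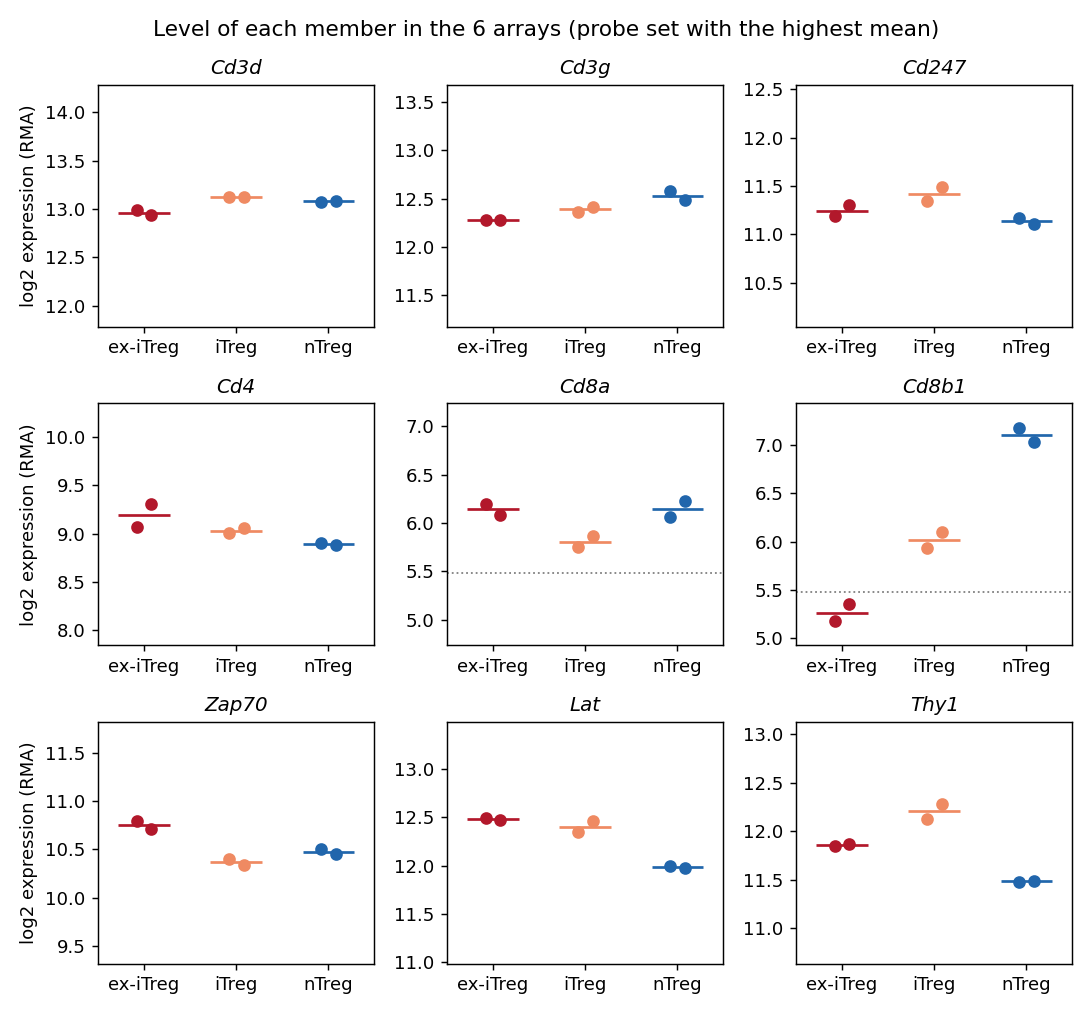
Log2 expression (y axis, each panel spanning the same number of log2 units) of each gene's brightest probe set in the 2 arrays of each population (points, with the group mean as a bar). The dotted line is the filter level of 5.48; Cd8b1 is under it in ex-iTreg arrays and spans the widest range, while Cd3d stays between 12.94 and 13.12.

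Among the CD3 chains, Cd3d was nearly level. It read 12.98 and 12.94 in ex-iTreg arrays, 13.12 and 13.12 in iTreg arrays and 13.08 and 13.08 in nTreg arrays. The ex-iTreg arrays were the lowest and did not overlap either other group, but the differences of -0.16 ± 0.06 from iTreg and -0.12 ± 0.06 from nTreg did not pass the test (adjusted p = 0.0873 and 0.184, limma). With a variance trend on intensity both passed (adjusted p = 0.000565 and 0.00572, limma).

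Cd3g, which pairs with Cd3e in the complex, read 12.28 and 12.28 in ex-iTreg arrays, 12.36 and 12.41 in iTreg arrays and 12.57 and 12.49 in nTreg arrays. The groups stood in that order without overlap. Cd3g fell by 0.25 ± 0.07 in ex-iTreg relative to nTreg arrays (adjusted p = 0.0262, limma), and its difference was -0.11 ± 0.07 from iTreg, while iTreg minus nTreg was -0.14 ± 0.07 (adjusted p = 0.247 and 0.152, limma). The call in ex-iTreg minus nTreg was lost without nTreg pool 1, ex-iTreg pool 1 or ex-iTreg pool 2 (-0.21, -0.25 and -0.25; adjusted p = 0.0923, 0.11 and 0.114, limma). With the variance trend the other 2 comparisons passed too (adjusted p = 0.0296 for ex-iTreg minus iTreg and 0.00695 for iTreg minus nTreg, limma).

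Cd3e, the third CD3 chain of the complex and the gene next to Cd3d on chromosome 9, belonged to the list of further receptor chains and not to the 10 genes. It read 10.46 and 10.41 in ex-iTreg arrays, 10.93 and 10.93 in iTreg arrays and 11.02 and 10.92 in nTreg arrays, so the ex-iTreg arrays stood alone. Cd3e fell by 0.49 ± 0.07 relative to iTreg and by 0.53 ± 0.07 relative to nTreg (adjusted p = 0.00255 and 0.00156, limma), calls kept without any 1 array.

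Cd247 encodes the zeta chain, and its probe sets disagreed. The brightest, 1426396_at, read 11.19 and 11.30 in ex-iTreg arrays, 11.35 and 11.48 in iTreg arrays and 11.17 and 11.10 in nTreg arrays. It rose by 0.28 ± 0.08 in iTreg relative to nTreg (adjusted p = 0.0411, limma), but with any of the 6 arrays left out it did not pass (0.21 to 0.35; adjusted p from 0.0604 to 0.185, limma), nor did it with the replicate number as a block (adjusted p = 0.0579, limma). A second probe set, 1420716_at, was likewise higher in iTreg than in nTreg arrays, by 0.52 ± 0.10 (adjusted p = 0.0128, limma), and higher in ex-iTreg than in nTreg arrays, by 0.36 ± 0.10 (adjusted p = 0.0338, limma). The first of these calls was lost without nTreg pool 2 or iTreg pool 2 (0.43 and 0.45; adjusted p = 0.0534 and 0.0723, limma). The second was lost without nTreg pool 2 or ex-iTreg pool 2 (0.27 and 0.26; adjusted p = 0.133 and 0.173, limma) and with the replicate block (adjusted p = 0.0528, limma).

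The third tested probe set of Cd247, 1452539_a_at, ran differently. It read 9.72 and 9.74 in ex-iTreg arrays, 9.34 and 9.09 in iTreg arrays and 9.36 and 9.29 in nTreg arrays. The ex-iTreg arrays stood above all others, and iTreg and nTreg arrays overlapped. It rose by 0.52 ± 0.09 in ex-iTreg relative to iTreg (adjusted p = 0.00676, limma), kept without any 1 array, and by 0.41 ± 0.09 relative to nTreg (adjusted p = 0.0162, limma). The call in ex-iTreg minus nTreg was lost without nTreg pool 2, ex-iTreg pool 1 or ex-iTreg pool 2 (0.37, 0.41 and 0.40; adjusted p = 0.0669, 0.0748 and 0.0814, limma). In the platform's naming, the suffix _a marks probe sets that match several transcripts of a gene. Between ex-iTreg and iTreg arrays the 2 other tested probe sets gave -0.17 ± 0.08 and -0.16 ± 0.10 (adjusted p = 0.134 and 0.273, limma), so no single direction holds for Cd247 there. With the variance trend on intensity, 1426396_at passed there as lower in ex-iTreg arrays (adjusted p = 0.0133, limma).

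**Figure D2:**
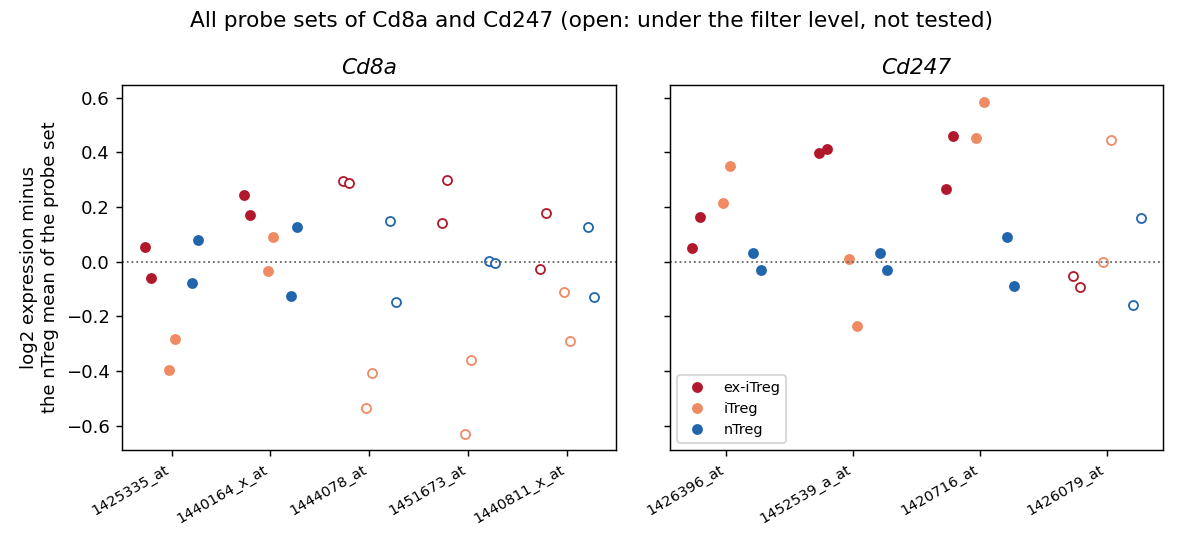
Log2 expression of every annotated probe set of Cd8a and Cd247 (x axis), as the difference from that probe set's nTreg mean (y axis), with 1 point per array; open points are probe sets under the filter level, which were not tested. For Cd8a the iTreg arrays lie below all others without overlap on 1425335_at, 1444078_at and 1451673_at, and for Cd247 the ex-iTreg arrays lie above all others on 1452539_a_at and on no other probe set.

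Cd4, the coreceptor on which all 3 populations were sorted, read 9.07 and 9.31 in ex-iTreg arrays, 9.00 and 9.06 in iTreg arrays and 8.90 and 8.89 in nTreg arrays on its brighter probe set, 1419696_at. The order was ex-iTreg, iTreg, nTreg without overlap, although ex-iTreg pool 1 lay next to iTreg pool 2. It rose by 0.29 ± 0.09 in ex-iTreg relative to nTreg (adjusted p = 0.0462, limma). It no longer passed when any array other than ex-iTreg pool 1 was left out (0.17 to 0.30; adjusted p from 0.0718 to 0.21, limma), or with per-array median centring (0.29; adjusted p = 0.0558, limma) or the replicate block (adjusted p = 0.0522, limma). The remaining differences were 0.16 ± 0.09 in ex-iTreg minus iTreg and 0.14 ± 0.09 in iTreg minus nTreg (adjusted p = 0.223 and 0.305, limma).

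The dimmer probe set of Cd4, 1427779_a_at, showed the same order with larger steps. It read 7.06 and 6.92 in ex-iTreg arrays, 6.73 and 6.35 in iTreg arrays and 6.27 and 6.16 in nTreg arrays. It rose by 0.77 ± 0.13 in ex-iTreg relative to nTreg, a 1.71-fold difference (adjusted p = 0.00519, limma), which was kept without any 1 array. It also rose by 0.45 ± 0.13 relative to iTreg (adjusted p = 0.0384, limma), but no longer passed when any array other than iTreg pool 1 was left out (0.26 to 0.52; adjusted p from 0.0525 to 0.173, limma). In iTreg minus nTreg it differed by 0.33 ± 0.13 (adjusted p = 0.112, limma), and without iTreg pool 2 by 0.51 (adjusted p = 0.0332, limma).

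Cd8b1, the CD8 beta chain of cytotoxic T cells, had the widest range of the 9 genes although all cells were sorted on CD4. It read 5.18 and 5.35 in ex-iTreg arrays, 5.94 and 6.10 in iTreg arrays and 7.18 and 7.03 in nTreg arrays. The 3 groups stood far apart, nTreg arrays highest. Cd8b1 fell by 1.09 ± 0.10 in iTreg relative to nTreg (adjusted p = 0.000857, limma) and by 0.75 ± 0.10 in ex-iTreg relative to iTreg (adjusted p = 0.00206, limma). In ex-iTreg relative to nTreg it fell by 1.84 ± 0.10 (adjusted p = 4.3e-05, limma). All 3 calls were kept without any 1 array. Both ex-iTreg arrays lay under the filter level, which Cd8b1 passed only through iTreg and nTreg arrays. The filter thus favoured a fall in ex-iTreg arrays, and the sizes of the 2 differences from that group are not resolved. The 1 probe set of Cd8b1 is an _a set.

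Cd8a, the CD8 alpha chain, which is also found as a homodimer on some other lymphoid and dendritic cells, did not follow Cd8b1. On its brightest probe set, 1425335_at, it read 6.20 and 6.09 in ex-iTreg arrays, 5.75 and 5.86 in iTreg arrays and 6.07 and 6.22 in nTreg arrays. The iTreg arrays were lowest, and ex-iTreg and nTreg arrays overlapped. It fell by 0.34 ± 0.09 in iTreg relative to nTreg and rose by 0.33 ± 0.09 in ex-iTreg relative to iTreg (adjusted p = 0.0304 and 0.025, limma). In ex-iTreg minus nTreg it differed by less than 0.01, with a standard error of 0.09 (adjusted p = 0.981, limma). The first did not pass when any array other than nTreg pool 1 was left out (-0.39 to -0.26; adjusted p from 0.052 to 0.133, limma). The second was lost when any 1 of the iTreg or ex-iTreg arrays was left out (0.28 to 0.39; adjusted p from 0.0533 to 0.132, limma). With the variance trend on intensity neither passed (adjusted p = 0.0546 and 0.0501, limma).

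The other probe sets of Cd8a were dimmer. The other tested one, 1440164_x_at, of a kind that shares probes with other sequences, did not pass in any comparison. It differed by 0.03 ± 0.10 in iTreg relative to nTreg arrays, and by 0.18 ± 0.10 in ex-iTreg relative to iTreg and 0.21 ± 0.10 relative to nTreg arrays (adjusted p = 0.86, 0.216 and 0.162, limma). The 3 untested probe sets were under the filter level in all 6 arrays. Of these, 1444078_at read 5.37 and 5.36 in ex-iTreg arrays, 4.54 and 4.66 in iTreg arrays and 5.22 and 4.92 in nTreg arrays, and 1451673_at read 5.10 and 5.26 in ex-iTreg arrays, 4.33 and 4.60 in iTreg arrays and 4.97 and 4.96 in nTreg arrays. On both, the iTreg arrays were lowest without overlap, as on the brightest probe set.

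To compare the CD8 chains with Cd4, the within-array log2 ratio of each chain to Cd4 was followed across groups, using the brightest probe set of each gene; its change shows unequal change of the 2 genes, not their relative amounts. The ratio of Cd8b1 to Cd4 changed by -1.22 between iTreg and nTreg arrays, by -0.91 between ex-iTreg and iTreg arrays and by -2.13 between ex-iTreg and nTreg arrays, with plain standard errors of 0.08, 0.06 and 0.07. The groups did not overlap in any of these comparisons. The smallest gap between arrays was 0.82, in ex-iTreg minus iTreg. Since Cd8b1 lay under the filter level in ex-iTreg arrays, the sizes against that group, their standard errors and this gap are not resolved. An exact two-sided permutation test of 2 arrays against 2 cannot go below p = 0.33, the value each comparison gave. The ratio of Cd8a to Cd4 changed by -0.47 ± 0.09 between iTreg and nTreg arrays, and by -0.30 ± 0.20 between ex-iTreg and nTreg arrays, without overlap (exact permutation p = 0.33 for both). In ex-iTreg minus iTreg it changed by 0.18 ± 0.18, with overlapping groups (exact permutation p = 0.67). These 6 comparisons form 1 family, and at this size an adjustment could not make any of them pass.

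**Figure D3:**
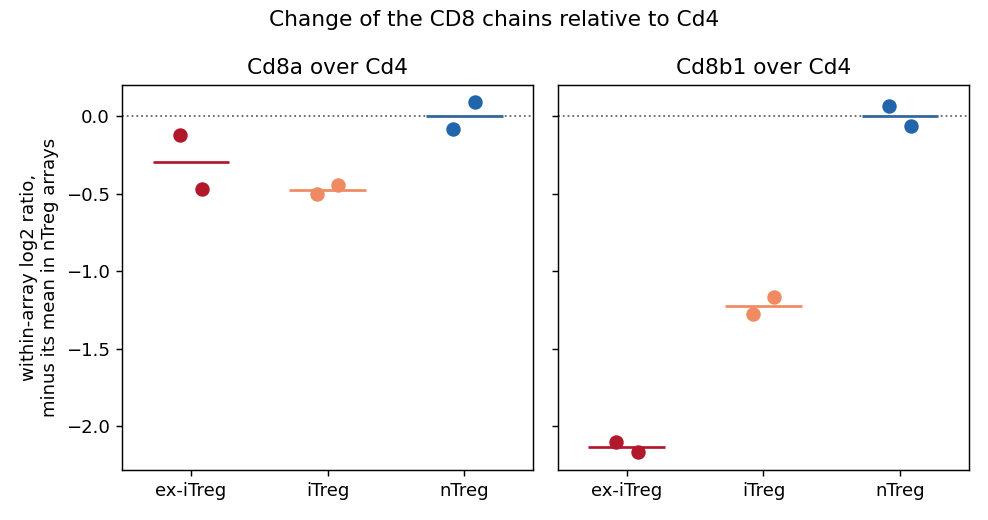
Within-array log2 ratio of Cd8a (left) and Cd8b1 (right) to Cd4, minus its mean in nTreg arrays, with 1 point per array and bars for group means. For Cd8b1 the ex-iTreg arrays lie at -2.10 and -2.17 and the iTreg arrays at -1.28 and -1.17; for Cd8a the ex-iTreg arrays lie at -0.12 and -0.47 and the iTreg arrays at -0.50 and -0.44.

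Markers of other cell types, some of which can carry CD8 chains, were set beside these values. Of 10 CD8 T and NK cell markers 9 were annotated, and 2 of those, Ncr1 and Klra8, averaged under the filter level. Their summed linear signal ranged from 2412 to 2444 in ex-iTreg arrays, from 1121 to 1160 in iTreg arrays and from 1407 to 1435 in nTreg arrays. The markers did not move together: of 7 tested, 3 rose and 2 fell in iTreg minus nTreg, 4 rose and 1 fell in ex-iTreg minus iTreg, and 6 rose and 1 fell in ex-iTreg minus nTreg. Over all genes tested, 29.1%, 36.6% and 37.4% were called in these comparisons. The killer cell lectin receptors Klrd1 and Klrk1, named after their values were seen, rose in ex-iTreg relative to iTreg arrays. The rises were 3.01 ± 0.07 and 3.14 ± 0.10 (adjusted p = 6.32e-06 and 1.36e-05, limma). Klrk1 read under the filter level in every iTreg and nTreg array and passed it only through ex-iTreg arrays, so the filter favoured its rise. Klrd1 averaged 5.51 in iTreg arrays, close to that level. The sizes of both rises are not resolved. Prf1, a cytotoxic granule gene also named after its values were seen, rose by 0.82 ± 0.07 in iTreg relative to nTreg arrays (adjusted p = 0.000618, limma). Gzma fell there by 0.80 ± 0.07 (adjusted p = 0.000873, limma). Eomes, a regulator of cytotoxic cells, averaged 7.79 in ex-iTreg arrays, 5.98 in iTreg arrays and 6.22 in nTreg arrays. Of 10 dendritic cell markers 9 were annotated and 4 were under the filter level on average, Itgax, Zbtb46, Xcr1 and Cd209a, the defining integrin of these cells among them. Their sum ranged from 1008 to 1055 in ex-iTreg arrays, from 1382 to 1384 in iTreg arrays and from 2309 to 2429 in nTreg arrays. That order rested on Ccr9, and without it the sums were level, at 806 to 874 in ex-iTreg arrays, 823 to 824 in iTreg arrays and 819.8 to 843 in nTreg arrays. Ccr9, a gut-homing receptor that T cells also carry and that is named after its values were seen, averaged 7.58 in ex-iTreg arrays, 9.13 in iTreg arrays and 10.59 in nTreg arrays. A second probe set of Zbtb46, a transcription factor of dendritic cells, was tested and averaged 4.59 in ex-iTreg arrays, 4.69 in iTreg arrays and 5.68 in nTreg arrays. It fell by 0.99 ± 0.07 in iTreg and by 1.08 ± 0.07 in ex-iTreg relative to nTreg arrays (adjusted p = 0.000396 and 0.000105, limma). Its averages in iTreg and ex-iTreg arrays lie under the filter level, which it passed only through nTreg arrays. The filter thus favoured a fall, and the size of the fall is not resolved. The brighter probe set of Zbtb46, under the filter level and untested, did not show it. That probe set read 5.04 and 5.06 in ex-iTreg arrays, 4.96 and 4.97 in iTreg arrays and 4.87 and 5.28 in nTreg arrays. Of 8 B cell markers 7 were annotated and 5 were under the filter level on average, Cd79a and Pax5 included. Their sum was 192 to 209.8 in ex-iTreg arrays, 269 to 293 in iTreg arrays and 429 to 444 in nTreg arrays. Without Cd79b it was 169 to 182 in ex-iTreg arrays, 174 to 210.1 in iTreg arrays and 207 to 259.7 in nTreg arrays, with neighbouring groups overlapping. Cd79b, likewise named after its values were seen, averaged 4.65 in ex-iTreg arrays, 6.47 in iTreg arrays and 7.66 in nTreg arrays. Ms4a1, likewise named after its values were seen, averaged 4.26 in ex-iTreg arrays, 4.61 in iTreg arrays and 5.71 in nTreg arrays. The part of these cells in the CD8 chain values was not tested.

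The genes whose 6 array values, centred on their own mean, lay nearest to those of Cd8b1 were Flicr, Plxnd1, Ddx43, Ppp1r3b and Fam241b, at Euclidean distances of 0.17, 0.23, 0.25, 0.27 and 0.27 over 6 arrays. Flicr, a long noncoding RNA, averaged 5.13 in ex-iTreg arrays, 5.90 in iTreg arrays and 7.02 in nTreg arrays, and Plxnd1, a semaphorin receptor, averaged 5.82 in ex-iTreg arrays, 6.75 in iTreg arrays and 7.72 in nTreg arrays. Nearest to Cd8a were Krt33b, Man2a1, Ddx28, Mbd2 and Lyrm9 (0.11 to 0.13), and nearest to Cd4 were Nup54, Smchd1, Anapc15, Sim1 and Actr6 (0.05 to 0.08).

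Zap70, the kinase that docks on the phosphorylated CD3 and zeta chains, was highest in ex-iTreg cells. Its brightest probe set, 1422701_at, read 10.79 and 10.71 in ex-iTreg arrays, 10.40 and 10.34 in iTreg arrays and 10.50 and 10.45 in nTreg arrays. Both ex-iTreg arrays lay above all others. It rose by 0.39 ± 0.07 in ex-iTreg relative to iTreg, a 1.31-fold difference kept without any 1 array (adjusted p = 0.00601, limma), and by 0.28 ± 0.07 relative to nTreg (adjusted p = 0.0197, limma). The call in ex-iTreg minus nTreg was lost without nTreg pool 2, ex-iTreg pool 1 or ex-iTreg pool 2 (0.25, 0.24 and 0.32; adjusted p = 0.0712, 0.117 and 0.0577, limma). In iTreg minus nTreg it differed by -0.11 ± 0.07 (adjusted p = 0.269, limma).

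A second probe set of Zap70, 1440178_x_at, also of the kind that shares probes with other sequences, read 10.32 and 10.43 in ex-iTreg arrays, 10.00 and 10.07 in iTreg arrays and 10.13 and 10.22 in nTreg arrays. It rose by 0.34 ± 0.07 in ex-iTreg relative to iTreg (adjusted p = 0.0128, limma), a call lost without iTreg pool 1 or ex-iTreg pool 2 (0.31 and 0.29; adjusted p = 0.0688 and 0.0842, limma), and differed by 0.20 ± 0.07 from nTreg (adjusted p = 0.0827, limma). With the variance trend on intensity the difference from nTreg passed (adjusted p = 0.0105, limma). The dimmest, 1439749_at, differed by at most 0.11 in any comparison (adjusted p from 0.376 to 0.859, limma).

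Lat, the scaffold that Zap70 phosphorylates, was higher in both populations of induced origin. It read 12.50 and 12.47 in ex-iTreg arrays, 12.35 and 12.46 in iTreg arrays and 11.99 and 11.98 in nTreg arrays. Every array of induced origin lay above both nTreg arrays. Lat rose by 0.50 ± 0.07 in ex-iTreg relative to nTreg and by 0.42 ± 0.07 in iTreg relative to nTreg, 1.41-fold and 1.34-fold (adjusted p = 0.002 and 0.00646, limma). Both calls were kept without any 1 array. ex-iTreg and iTreg arrays differed by 0.08 ± 0.07 (adjusted p = 0.406, limma).

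Thy1, a glycosylphosphatidylinositol-anchored protein of T cells and thymocytes, was also higher in both, with the iTreg arrays on top. It read 11.85 and 11.87 in ex-iTreg arrays, 12.13 and 12.28 in iTreg arrays and 11.48 and 11.49 in nTreg arrays. The groups did not overlap. The cells of induced origin carried the Thy1.1 allele and the nTreg cells did not, and whether this probe set reads both alleles alike was not tested. ex-iTreg and iTreg cells share the allele, and between them Thy1 fell by 0.35 ± 0.07 in ex-iTreg arrays (adjusted p = 0.0121, limma). That call was lost without iTreg pool 2, ex-iTreg pool 1 or ex-iTreg pool 2 (-0.27, -0.34 and -0.36; adjusted p = 0.0635, 0.0681 and 0.0612, limma). In iTreg minus nTreg the difference of 0.73 ± 0.07 was kept without any 1 array (adjusted p = 0.0013, limma). In ex-iTreg minus nTreg the difference of 0.38 ± 0.07 passed (adjusted p = 0.00925, limma), and that call was lost without ex-iTreg pool 1 or pool 2 (0.38 and 0.37; adjusted p = 0.051 and 0.0578, limma). All 10 macrophage and monocyte markers read above the filter level on average. Their summed linear signal ranged from 2945 to 2975 in ex-iTreg arrays, from 4612 to 4650.2 in iTreg arrays and from 2295 to 2428 in nTreg arrays. Of these 10 markers, 9 rose in iTreg minus nTreg, 9 fell in ex-iTreg minus iTreg and 6 rose in ex-iTreg minus nTreg, with no call the other way in these 3 comparisons. Over all genes tested, 16.4% rose in the first, 21% fell in the second and 18.4% rose in the third. The sums of 3 annotated erythroid and 6 stromal and endothelial markers were also highest in iTreg arrays, at 247 to 267 and 307 to 314, while 5 of the 6 stromal markers and Hba-a1 averaged under the filter level. The part of such cells in the values of Thy1, or of any other gene in these arrays, was not tested.

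**Figure D4:**
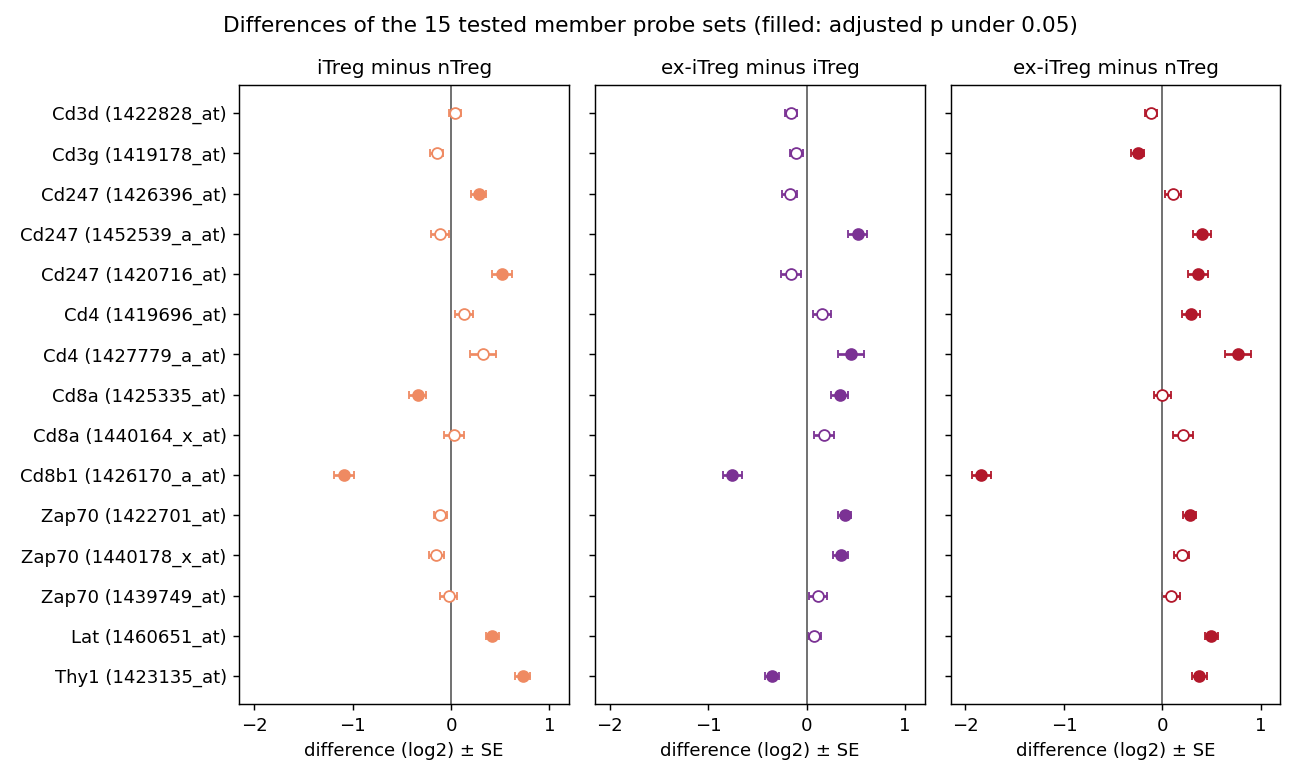
Difference between group means (x axis, log2 units) with its standard error for each of the 15 tested probe sets (rows) in the 3 comparisons (panels); filled points passed limma's test. Cd8b1 lies at -1.09, -0.75 and -1.84, and the next lowest point is Thy1 in ex-iTreg minus iTreg, at -0.35.

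The surrounding pathway was described with lists of named genes, each gene by its brightest tested probe set; 29.1%, 36.6% and 37.4% of all 11019 genes tested were called in iTreg minus nTreg, ex-iTreg minus iTreg and ex-iTreg minus nTreg. By direction, 16.4% were higher and 12.7% lower in the first, 15.6% higher and 21% lower in the second, and 18.4% higher and 19% lower in the third. Of 5 further receptor chains 3 were annotated and 2 tested, Cd3e and Trat1. The brightest probe set annotated to Trac, under the symbol Tcra, read below the filter level in every array. Whether it reads the expressed alpha chain transcript was not tested. Trat1, an adaptor that travels with the receptor, rose by 1.07 ± 0.08 in ex-iTreg relative to iTreg (adjusted p = 0.000259, limma). It fell by 0.64 ± 0.08 in iTreg relative to nTreg (adjusted p = 0.00241, limma).

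Of 13 tested kinases and phosphatases that act next to the receptor, 3 rose and 2 fell in iTreg minus nTreg, 4 rose and 3 fell in ex-iTreg minus iTreg, and 5 rose and 2 fell in ex-iTreg minus nTreg. Their medians were -0.04, 0.07 and -0.03, against 0.04, -0.02 and 0.03 over all genes tested. In ex-iTreg relative to iTreg arrays Ptpn22, a phosphatase that restrains Lck and Zap70, rose by 0.56 ± 0.06, Pag1, which recruits the Lck inhibitor Csk, by 0.57 ± 0.07, and Fyn, the Lck relative, by 0.54 ± 0.08 (adjusted p = 0.00121, 0.00133 and 0.00306, limma). Ptpn6, the phosphatase SHP-1, rose by 0.54 ± 0.07 on the probe set used (adjusted p = 0.00189, limma), and its other probe set differed by 0.08. In ex-iTreg relative to nTreg arrays Ubash3b, a phosphatase that acts on Zap70, fell by 0.80 ± 0.07 (adjusted p = 0.00035, limma). Ubash3a, the relative of Ubash3b, rose by 0.48 ± 0.07 in iTreg relative to nTreg (adjusted p = 0.00454, limma). Ptprc, the phosphatase CD45, did not pass in any comparison on the probe set used (-0.11 to 0.07), while its other probe set rose by 0.47 in ex-iTreg relative to iTreg and by 0.44 relative to nTreg.

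Of 18 tested adaptors, 6 rose and 1 fell in iTreg minus nTreg, 4 rose and 7 fell in ex-iTreg minus iTreg, and 4 rose and 5 fell in ex-iTreg minus nTreg (medians 0.15, -0.03 and 0.04). Themis, an adaptor of the receptor complex known for its part in thymocyte selection, had the widest range. It rose by 1.21 ± 0.10 in iTreg relative to nTreg, by 1.82 ± 0.10 in ex-iTreg relative to iTreg and by 3.03 ± 0.10 in ex-iTreg relative to nTreg (adjusted p = 0.000574, 8.02e-05 and 5.93e-06, limma), and all 3 of its other tested probe sets rose in each. Grap2, the adaptor Gads that links Lat to Lcp2, rose by 0.68 ± 0.10 in iTreg and by 0.84 ± 0.10 in ex-iTreg relative to nTreg (adjusted p = 0.00434 and 0.00106, limma). Its other tested probe set differed by 0.27 in iTreg, which did not pass, and by 0.44 in ex-iTreg relative to nTreg (adjusted p = 0.13 and 0.0283, limma). Sla2, an inhibitory adaptor, fell by 0.67 ± 0.06 in ex-iTreg relative to iTreg (adjusted p = 0.000553, limma). Nck2 fell by 0.41 ± 0.07 there on the probe set used (adjusted p = 0.00471, limma), but its other 2 rose by 0.44 and 0.49, so no direction holds over its probe sets.

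Of 15 tested downstream effectors, 3 rose and 3 fell in iTreg minus nTreg, 4 rose and 5 fell in ex-iTreg minus iTreg, and 6 rose and 3 fell in ex-iTreg minus nTreg (medians -0.01, 0.04 and 0.14). Malt1, a protease of the complex that links the receptor to NF-kappaB, rose by 0.94 ± 0.06 in ex-iTreg relative to iTreg (adjusted p = 0.000174, limma). It fell by 0.36 ± 0.06 in iTreg relative to nTreg (adjusted p = 0.00853, limma). Prkcq, the kinase upstream of that complex, rose by 0.62 ± 0.06 in iTreg and by 0.42 ± 0.06 in ex-iTreg relative to nTreg (adjusted p = 0.00116 and 0.00285, limma). Orai1, a calcium channel subunit, fell by 0.51 ± 0.06 in ex-iTreg relative to nTreg (adjusted p = 0.00143, limma).

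Of 10 tested surface modulators, 1 rose and 3 fell in iTreg minus nTreg, 2 rose and 5 fell in ex-iTreg minus iTreg, and 3 rose and 6 fell in ex-iTreg minus nTreg (medians -0.09, -0.22 and -0.28). Cd27, a costimulatory receptor, fell by 1.34 ± 0.07 in ex-iTreg relative to iTreg and by 1.66 ± 0.07 relative to nTreg (adjusted p = 6.75e-05 and 1.49e-05, limma). Slamf1, an adhesion receptor, fell by 0.80 ± 0.07 and by 1.05 ± 0.07 in the same comparisons (adjusted p = 0.00057 and 0.000128, limma). Cd28, the costimulatory receptor, rose by 0.45 ± 0.06 in ex-iTreg relative to iTreg and by 0.49 ± 0.06 relative to nTreg (adjusted p = 0.00237 and 0.00136, limma).

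Of 11 tested regulators of the CD4 and CD8 lineages, 5 rose and 3 fell in iTreg minus nTreg. In ex-iTreg minus iTreg and in ex-iTreg minus nTreg 4 rose and 3 fell (medians 0.11, -0.05 and 0.06). Zbtb7b, the factor ThPOK that holds cells in the CD4 lineage, averaged 7.65 in ex-iTreg arrays, 8.07 in iTreg arrays and 7.74 in nTreg arrays. It fell by 0.42 ± 0.09 in ex-iTreg relative to iTreg (adjusted p = 0.0112, limma), a call lost without iTreg pool 1 or ex-iTreg pool 2 (adjusted p up to 0.0728, limma), and its other probe set fell by 0.56. It rose by 0.33 ± 0.09 in iTreg relative to nTreg (adjusted p = 0.0327, limma), which did not pass when any array other than nTreg pool 2 was left out (adjusted p up to 0.123, limma) and under quantile normalization and the replicate block. Runx3, the factor of the CD8 lineage that silences Cd4, averaged 10.27 in ex-iTreg arrays, 9.94 in iTreg arrays and 10.04 in nTreg arrays, and is named here after its values were seen. It rose by 0.32 ± 0.09 in ex-iTreg relative to iTreg (adjusted p = 0.0328, limma), a call not retested with arrays left out. Runx1 rose by 1.66 ± 0.07 in iTreg relative to nTreg on the probe set used (adjusted p = 9.15e-05, limma), but its other 5 ranged from -0.28 to 0.48, so its size and direction depend on the probe set. Myb, a factor of early T cell development, fell by 1.16 ± 0.07 in iTreg relative to nTreg, on all its probe sets, and Satb1, a chromatin organizer, rose by 0.57 ± 0.06 (adjusted p = 0.000202 and 0.00177, limma).

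**Figure D5:**
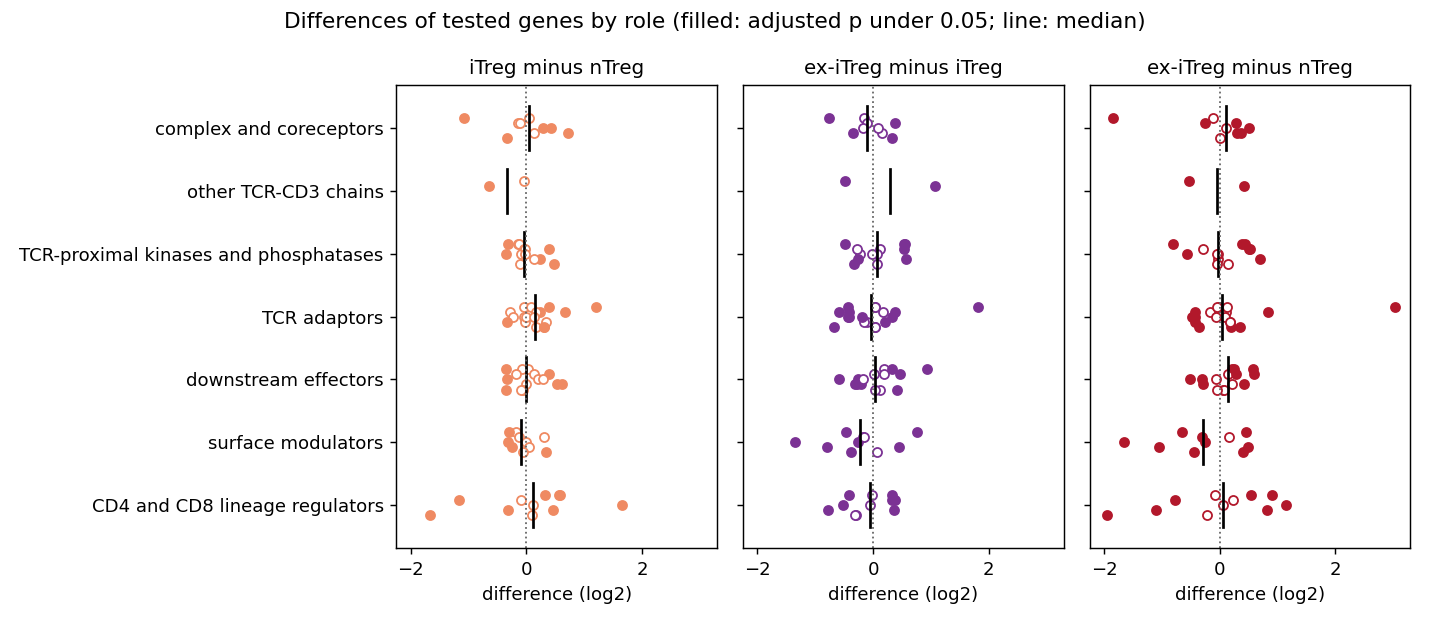
Difference of each tested gene (x axis, log2 units) by list (rows) in the 3 comparisons (panels), 1 point per gene, filled where limma's test passed, with the list's median as a line. The top row holds the 9 genes of the receptor complex and coreceptors with Cd8b1 at its left end; the far right point in the adaptor row is Themis, at 3.03 in ex-iTreg minus nTreg.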

How the data were processed

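The authors deposited a table of log2 values for every array, which RMA produced according to the submitters' processing notes; which software ran it is not given in the sources used. RMA puts all arrays on 1 distribution, so a shift shared by most genes would not show. Of 45101 probe sets, 64 controls were left out. Symbols were taken from GEO's annotation of the platform, where 34945 probe sets carry 1 symbol; chromosomes and neighbours came from a RefSeq table.

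The test was limma's (version 3.58.1, R 4.3.3, functions lmFit and eBayes), with a mean per group over all 6 arrays (3 residual and 3.37 prior degrees of freedom) and Benjamini-Hochberg adjustment over 23484 probe sets; the script was tested on simulated data. A gene in a list was represented by its tested probe set with the highest mean. Named list genes were up to 4 per list and comparison by absolute t, plus Ptprc, Itgax, Xcr1, Eomes and Zbtb7b; Runx3, Ccr9, Cd79b, Ms4a1, Klrd1, Klrk1, Prf1, Gzma and Zbtb46 were added after their values were seen. The genes and lists were chosen with earlier results of these data known. Cd8 against Cd4 was tested by exact permutation.

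Alternatives were other filters, scalings, variance models, fits and leaving out each array. The number of arrays limits the precision.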

Additional observations from a re-analysis of the deposited data

How the results depend on the processing

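No called difference of the 15 probe sets described changed direction under the other filters, scalings, variance models, fits or with 1 array left out. Among the list genes named, those with other probe sets called in the opposite direction included Nck2, Runx1 and Satb1. For Nck2 they gave 0.44 and 0.49 in ex-iTreg minus iTreg, against -0.41, and 1 gave -0.40 in iTreg minus nTreg, against 0.24. For Runx1 they gave -0.28 in iTreg minus nTreg, against 1.66, and -0.60 in ex-iTreg minus nTreg, against 1.15. For Satb1 1 gave -0.37 in ex-iTreg minus iTreg, against 0.33. Leaving out 1 array gave 3420 to 5380 called probe sets in iTreg minus nTreg (6826 with all arrays), 4971 to 9104 in ex-iTreg minus iTreg (8694) and 5243 to 7928 in ex-iTreg minus nTreg (8558), and 3 to 5, 3 to 6 and 3 to 8 of the 15 probe sets described (6, 7 and 9 with all arrays). Without a filter on low values 5 of the 15 were called in ex-iTreg minus nTreg. Without it the calls of Cd8a, of Cd247 1426396_at in iTreg minus nTreg, of Cd4 1427779_a_at in ex-iTreg minus iTreg, and of Cd3g, Cd4 1419696_at, Cd247 1420716_at and Zap70 1422701_at in ex-iTreg minus nTreg were lost. For the 69 genes of the pathway lists, taking all 144 tested probe sets gave 67, 88 and 85 calls. Over all probe sets tested, 29.1%, 37% and 36.4% were called.

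The groups share pool numbers, which the labels do not say pair the arrays, and deviations of same-numbered arrays correlated at -0.01, -0.04 and -0.09 across probe sets. The replicate number as a block gave 5853, 8011 and 7814 called probe sets and 5, 7 and 7 of the 15. Among the 15 it ended the calls of Cd247 1426396_at and 1420716_at and of Cd4 1419696_at, as given in the report, and among the list genes named those of Slamf1 and Zbtb7b in iTreg minus nTreg.

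The change of Cd8a relative to Cd4 depended on the probe sets paired, and the cause was not tested. There are 9 other pairs, of which 6 use a Cd8a probe set under the filter level. In iTreg minus nTreg they gave -0.66, -0.11, -0.30, -0.61, -0.80, -0.63, -0.82, -0.34 and -0.53, against -0.47 as reported. In ex-iTreg minus iTreg they gave -0.11, -0.27, 0.60, 0.56, -0.17, 0.02, 0.32, 0.27 and 0.12, against 0.18, with 6 above and 3 below 0. In ex-iTreg minus nTreg they gave -0.78, -0.088, -0.57, -0.00295, -0.074, -0.55, -0.70, -0.48 and -0.22, against -0.30. For Cd8b1 the other Cd4 probe set gave -1.41, -1.20 and -2.61, against -1.22, -0.91 and -2.13. Leaving out 1 array gave -0.56 to -0.39, 0.00248 to 0.35 and -0.47 to -0.12 for Cd8a, and -1.29 to -1.16, -0.97 to -0.86 and -2.20 to -2.07 for Cd8b1. With 2 arrays per group, small differences are not resolved, and values near the filter level lie close to background.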
